A study of Caenorhabditis elegans with 2 samples.

Results

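The genes described here are 8 osmotic stress response genes of Caenorhabditis elegans, out of 19973 protein-coding genes on the nuclear chromosomes. The 7 described one by one are osm-11, osm-8 and ptr-23, which encode secreted and membrane regulators, gpdh-1 and gpdh-2, which encode glycerol synthesis enzymes, hmit-1.1, which encodes a transporter, and wnk-1, which encodes a protein kinase. The 8 were chosen by name for their known roles, with earlier results of these data known. For each gene, all ELT-3 regions were taken whose summit, the position of strongest signal given by the authors, lay between 3000 bp upstream of the gene's 5′ end and its 3′ end. All coordinates are on the ce11 build, with Ensembl release 115 gene models.

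The regions come from chromatin immunoprecipitation sequencing (ChIP-seq) of the epidermal GATA factor ELT-3 in L3 larvae. The animals were of strain OP75, with the genotype unc-119(ed3) III; wgIs75. All animals carried both the unc-119 mutation and the transgene, which per the labels targets elt-3 and is described as eGFP-elt-3. The study has 1 group of 2 biological replicates, each made from whole larvae of both sexes, of which the epidermis is only one tissue. The labels name elt-3 as the antibody target, but not whether the antibody bound the fluorescent tag or ELT-3 itself. Nothing in the labels describes a salt treatment. With 1 group and no control samples used here, no test between groups could be made. Most counts stand beside a share over all protein-coding genes or over all pooled regions.

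Worms in a hypertonic medium lose water and respond by making and taking up small organic solutes, mainly glycerol, in the epidermis and intestine. Secreted and membrane proteins, including OSM-11, OSM-8 and PTR-23, keep this response low in normal conditions or take part in switching it on. WNK kinases regulate ion transport and cell volume. GATA factors such as ELT-3 bind short words built around GATA, searched here as AGATAA and AGATAG, and as TGATAA and TGATAG, on either strand.

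The regions of osm-11 and wnk-1 stood on the list that passed the authors' irreproducible discovery rate (IDR) threshold, and their sequences are shown because they are the strongest ELT-3 regions of the set. The osm-11 stretch lies 223 to 508 bp before the gene's 5′ end, at chrX:17421805-17422090 on the minus strand, and its capitals mark 4 GATA words. The wnk-1 stretch lies 1720 to 1992 bp before the 5′ end, at chrIV:9198111-9198383 on the plus strand, and its capitals mark CACGTG and, at its end, TGATAA.
osm-11: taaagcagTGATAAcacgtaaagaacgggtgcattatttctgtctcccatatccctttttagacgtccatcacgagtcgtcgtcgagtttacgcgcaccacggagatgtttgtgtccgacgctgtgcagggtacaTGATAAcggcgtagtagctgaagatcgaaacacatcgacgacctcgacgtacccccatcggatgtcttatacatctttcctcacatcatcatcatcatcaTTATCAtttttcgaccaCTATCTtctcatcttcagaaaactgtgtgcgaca
wnk-1: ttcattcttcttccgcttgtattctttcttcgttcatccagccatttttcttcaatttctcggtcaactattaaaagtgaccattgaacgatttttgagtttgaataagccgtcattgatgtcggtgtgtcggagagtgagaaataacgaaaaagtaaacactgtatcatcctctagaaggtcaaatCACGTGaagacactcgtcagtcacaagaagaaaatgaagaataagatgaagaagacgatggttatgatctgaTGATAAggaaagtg

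Another 2 sequences are shown for comparison, each 101 bases around a summit. The first is from another IDR region, which lies just past the 3′ end of osm-11 and so outside its window, at chrX:17419989-17420089 on the minus strand. The second is from a weak pooled region in an intron of gpdh-2, at chrIII:9857323-9857423 on the minus strand, with TGATAA in capitals. The capitals in the osm-11 stretch mark CTATCT, which is AGATAG read on the opposite strand.
osm-11 past the 3′ end: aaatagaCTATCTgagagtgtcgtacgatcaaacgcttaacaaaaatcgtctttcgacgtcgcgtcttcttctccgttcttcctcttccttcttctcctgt
gpdh-2 intron: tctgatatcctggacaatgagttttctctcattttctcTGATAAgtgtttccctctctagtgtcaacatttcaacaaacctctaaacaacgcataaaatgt

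The 4 lists of regions on ce11 differ in length and stringency. The IDR list held 280 regions, the list from both replicates pooled held 21761, and each replicate's list held 30000. Both replicate lists have exactly this length, and whether it is a limit that the authors set is not stated, so an absent replicate region means only that it is not among those 30000. The pooled and replicate lists are relaxed and hold background as well as peaks, so a low rank there need not be a binding site. Ranks run from 1, the strongest by the authors' signal value, and signals are compared only within a list. The sources used here do not give read depth, so no interval on a signal can be given.

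An IDR region lay in the windows of 2 of the 8 osmotic genes, osm-11 and wnk-1, beside 1.66% of all protein-coding genes. A pooled region lay in the windows of 6 of the 8, beside 67.2% of all genes, and one of the 1000 strongest pooled regions in the windows of 2 of the 8, beside 5.34%. Replicate 1 had a region at 8 of the 8 genes, beside 78.2% of all genes, and replicate 2 at 7 of the 8, beside 78.8%. The counts over the whole of the relaxed lists are near the background. The 2 genes with an IDR region are also the 2 with one of the 1000 strongest, through the same 2 regions. The IDR regions lie within the 1000 strongest pooled ones, so these are not separate results. A count of 2 of the 8 is small, the genes were chosen with earlier results of these data known, and no test was made of it.

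The windows of the osmotic genes were longer than usual, with a median of 8.70 kb against 5.03 kb over all genes, and longer windows hold more regions. Among the 5 osmotic genes in the longest windows, of 6.64 to 106 kb, 1 had an IDR region, beside 2.50% of all genes with such windows, and 3 had a pooled region, beside 80.4%. Of the 3 in shorter windows, osm-11 had an IDR region, beside 1.22% of genes with windows of 4.22 to 5.03 kb. Per kb of window, the osmotic genes held 0.0276 IDR regions, against 0.00285 over all windows, the higher value resting on the 2 regions of osm-11 and wnk-1. They held 0.221 pooled regions per kb, against 0.218 over all windows. In the replicates the densities were 0.331 per kb in replicate 1 and 0.345 per kb in replicate 2, against 0.300 per kb in replicate 1 and 0.303 per kb in replicate 2 over all windows.

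**Figure D1:**
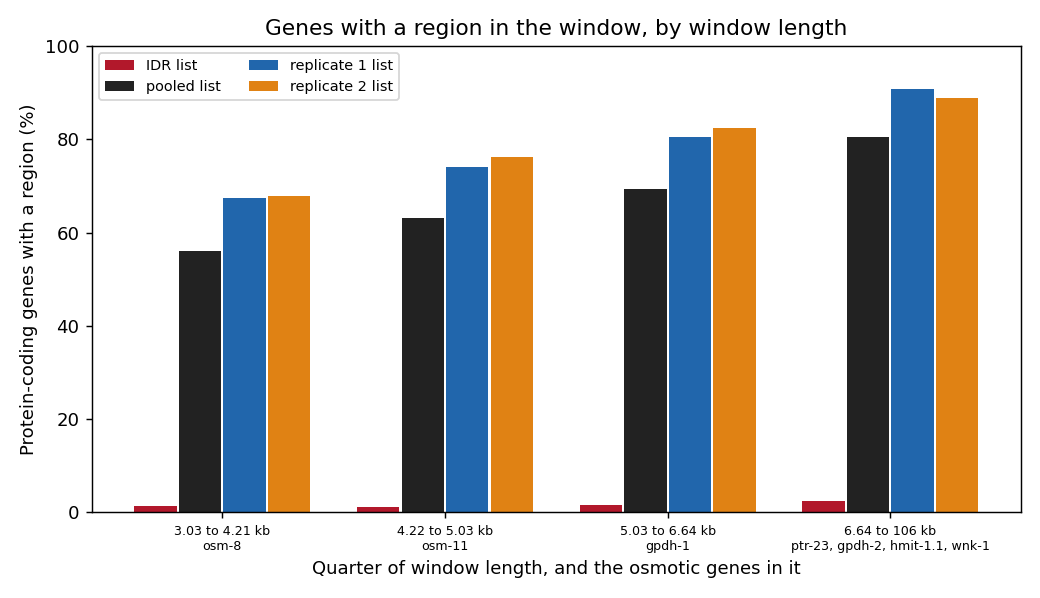
Percent of protein-coding genes (y axis) with a region in the window from 3000 bp upstream to the 3′ end, in 4 groups of genes by window length in kb (x axis), with the osmotic genes described in the text named under their group; bars stand for the 4 lists. In the pooled list the share runs from 56.0% of genes in the shortest windows to 80.4% in the longest.

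**Figure D2:**
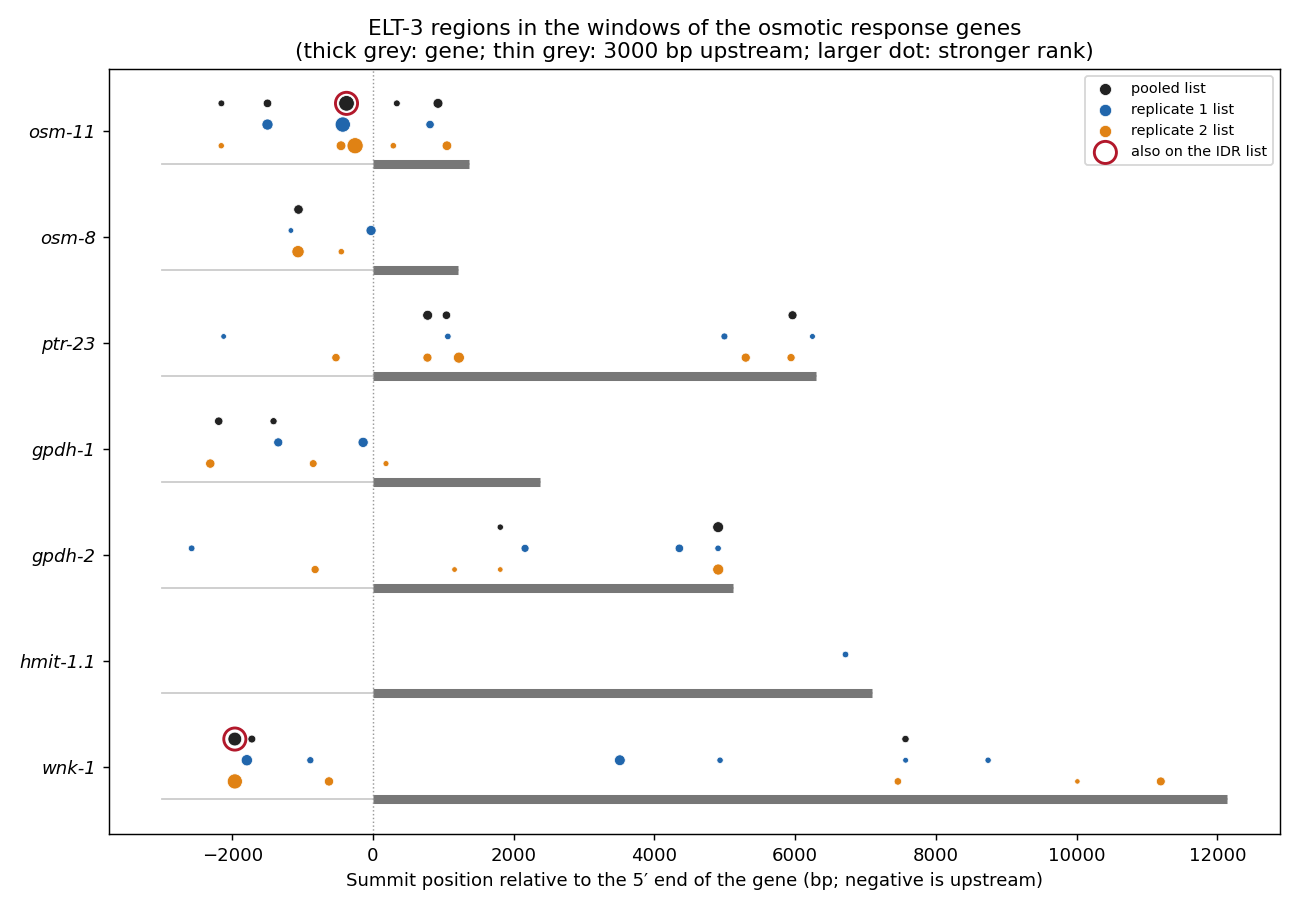
Summits (dots) of the pooled, replicate 1 and replicate 2 regions at the 7 osmotic genes described, by distance in bp from the 5′ end (x axis, negative is upstream); the thick bar is the gene, the thin line the 3000 bp before it, a larger dot a stronger rank, and a red ring a region also on the IDR list. Ringed summits lie at osm-11, 375 bp upstream, and at wnk-1, 1962 bp upstream.

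OSM-11 is a secreted protein with a DOS motif that acts as a co-ligand of Notch receptors, and worms without it are resistant to osmotic stress. Its gene is WBGene00003891, at chrX:17420211-17421582 on the minus strand. It had the strongest region of the set, IDR and pooled rank 58 with a signal of 76.3, with the summit 375 bp upstream of the 5′ end. A pooled region this strong or stronger lay in the windows of 0.315% of all protein-coding genes. The summit lies between protein-coding genes, inside linc-48, an annotated long intergenic noncoding RNA on the opposite strand, 70 bp from that RNA's 5′ end.

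Both replicates had one of their strongest regions at this place, with summits on either side of the pooled one. Replicate 1 had rank 79 with a signal of 43.4 and its summit 428 bp upstream. Replicate 2 had rank 36 with a signal of 35.9 and its summit 253 bp upstream, and a weaker overlapping region, rank 4182, 453 bp upstream. The strongest summits of the replicates were thus 175 bp apart. The 4 GATA words are centred 498, 371, 271 and 254 bp upstream. The pooled summit lies 4 bp from the nearest word, TGATAA, the replicate 1 summit 57 bp from that same word, and the replicate 2 summit 1 bp from the word nearest to the gene. A pooled region with 4 or more GATA words was uncommon, at 3.18% of the pooled list and 21.1% of the IDR list.

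osm-11 had another 4 pooled regions, all weaker. The one of rank 3872, with a signal of 24.3, had its summit in the 3′ UTR, 925 bp from the 5′ end. Neither replicate had a summit within 100 bp of it, but both had an overlapping region. These had rank 8265 in replicate 1, with the summit 113 bp away, and rank 4443 in replicate 2, 127 bp away. The one of rank 7694 lay 1498 bp upstream at exactly the summit of a replicate 1 region of rank 1798, and replicate 2 had none that overlapped it. The remaining ones, ranks 16739 in a coding exon and 17055 at 2153 bp upstream, had a nearby summit only in replicate 2, at ranks 19288 and 20550. With 5 regions in 4.37 kb, the osm-11 window held 1.14 pooled regions per kb.

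A strong region fell just outside the osm-11 window. Its summit lies 172 bp past the 3′ end of the gene, in the region chrX:17419861-17420216, and osm-11 has the nearest protein-coding 5′ end, 1543 bp away. It was on the IDR list with pooled rank 194 and a signal of 51.2. Replicate 1 had a summit of rank 212 within 51 bp and replicate 2 one of rank 2381 within 19 bp. It holds 3 GATA words, of which 1 is within 50 bp of the summit and is the one in capitals above. It is not counted among the regions of osm-11 here.

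**Figure D3:**
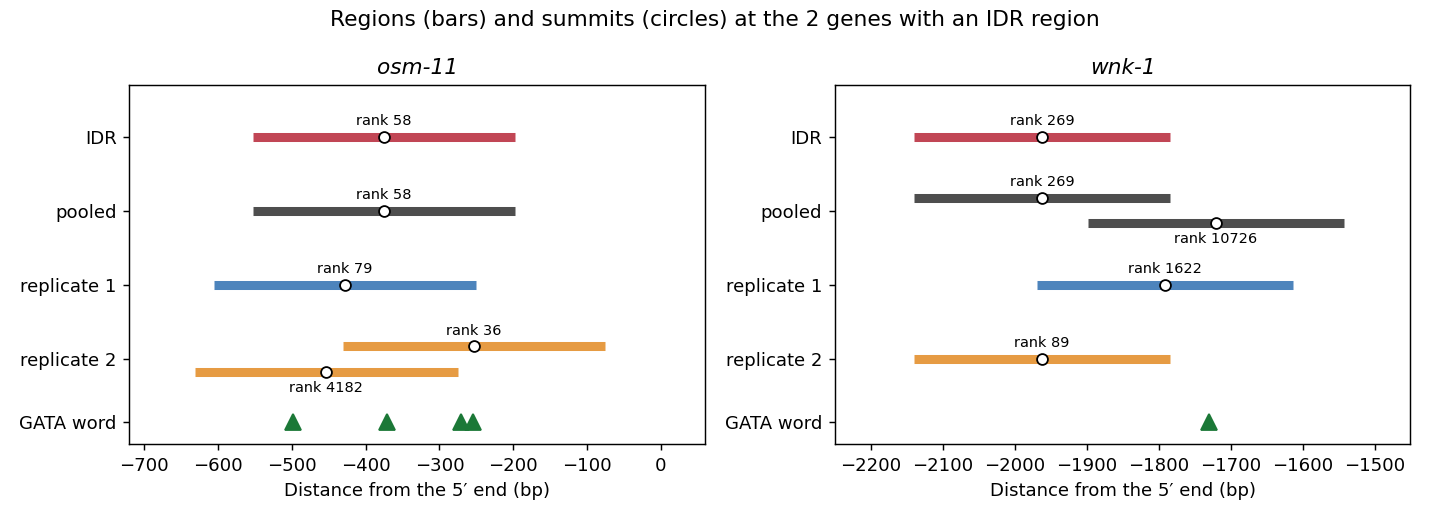
Regions (bars) and summits (circles) of the 4 lists around the IDR regions of osm-11 (left) and wnk-1 (right), by distance in bp from the 5′ end (x axis), with ranks as labels and GATA words of the pooled regions as triangles. At osm-11 the strongest replicate summits are 175 bp apart on either side of the pooled one; at wnk-1 the replicate 2 summit is that of the IDR region and the replicate 1 summit lies 171 bp away.

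OSM-8 is a secreted mucin-like protein whose loss turns on the glycerol response in normal medium. Its gene, WBGene00003888 at chrII:7604196-7605406, lies inside npp-21, a nuclear pore gene. The single pooled region had rank 4804 and a signal of 23.2, with the summit 1064 bp upstream in a coding exon of npp-21, and 21.7% of all genes had a region as strong. Replicate 2 had this region at the same summit with rank 827 and a signal of 20.7. In replicate 1 the only overlapping region had rank 25344. The strongest replicate 1 region, rank 3326 with a signal of 14.0, instead lay 26 bp upstream of the 5′ end, in an intron of npp-21. The pooled region held none of the 4 GATA words, and osm-8 and npp-21 share the stretch, so it cannot be assigned to one of them by position.

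PTR-23 is a patched-related membrane protein, and its loss suppresses the effects of losing OSM-8. The gene, WBGene00004237 at chrI:14906792-14913083, had 3 pooled regions, all within the gene body and none on the IDR list. The strongest had rank 3718 and a signal of 24.6, 778 bp into the gene in an intron, and 17.6% of all genes had a region as strong. Replicate 2 had a summit of rank 5994 within 3 bp of it, and replicate 1 had none within 100 bp. The region of rank 8010 overlaps it, with its summit 267 bp further on, near a replicate 1 summit of rank 18551. The remaining one, rank 6146, lies in a coding exon 5963 bp from the 5′ end of ptr-23 and only 1011 bp upstream of the next gene, kin-1. The strongest regions in the replicates were at different places, rank 15693 in replicate 1 and rank 1916 in replicate 2, with summits 3773 bp apart.

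GPDH-1 and GPDH-2 are glycerol-3-phosphate dehydrogenases, the enzymes that make the precursor of glycerol, and gpdh-1 is strongly induced by hypertonic medium. gpdh-1, WBGene00009824 at chrI:14075837-14078211, had 2 pooled regions, both upstream. The first had rank 8269 and a signal of 20.4, 2191 bp upstream, and 34.4% of all genes had a region as strong. The second, rank 14626 at 1412 bp upstream, had a GATA word within 50 bp of its summit and a replicate 1 summit of rank 5898 within 67 bp. The region closest to the start of the gene was in replicate 1 alone. It had rank 3204 and a signal of 14.2, 139 bp upstream, with a GATA word 42 bp from the summit, and no pooled region overlapped it. In replicate 2 only the edge of a region of rank 22945, with its summit 186 bp into the gene, overlapped it. Replicate 2 had its strongest summit 2172 bp away, at rank 5198. That region overlaps the pooled region of rank 8269, with the summits 120 bp apart, and no replicate 1 region overlapped that pooled region.

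gpdh-2, WBGene00010778 at chrIII:9854074-9859183, had its strongest region at the far end of the gene. This pooled region had rank 2103 and a signal of 27.8, in the 3′ UTR 4906 bp from the 5′ end, and 10.5% of all genes had one as strong. The nearest protein-coding 5′ end was that of K11H3.3, 2423 bp away. Both replicates had a summit within 1 bp of it, at rank 18913 in replicate 1 and rank 1880 in replicate 2. It held no GATA word. The other pooled region, rank 20182 with a signal of 15.5, lay in an intron and held the TGATAA shown above, 10 bp from the summit. Replicate 2 had it at the same summit with rank 26239. gpdh-2 has 4 annotated transcripts. The intron summit lies 340 bp upstream of the nearest of their starts, and the 3′ UTR summit 2751 bp past the nearest.

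hmit-1.1 encodes a proton-coupled myo-inositol transporter that is induced by hypertonic medium. It is WBGene00013073, at chrV:18516789-18523875. No pooled region and no replicate 2 region lay in its window of 10.1 kb, while 80.4% of genes with windows of 6.64 to 106 kb had a pooled region. Its only region was in replicate 1, rank 18291 with a signal of 8.19, in an intron 6706 bp from the 5′ end, and the nearest 5′ end was that of hmit-1.2, 1265 bp away.

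wnk-1 had the second strongest region of the set. WNK kinases sense changes in chloride and cell volume, and WNK-1 is needed for the response of the worm to hypertonic medium. wnk-1, WBGene00006941 at chrIV:9200103-9212242, had an IDR region of pooled rank 269 and signal 47.4, with the summit 1962 bp upstream between protein-coding genes. A pooled region as strong lay in the windows of 1.59% of all genes. It stands close to the end of the 280 IDR regions, whose lowest signal was 46.8.

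The replicates differed at the wnk-1 site. Replicate 2 had rank 89 and a signal of 30.6 at the same summit. Replicate 1 had an overlapping region of rank 1622 and signal 16.9, with its summit 171 bp closer to the gene. The IDR region holds CACGTG and none of the 4 GATA words. The TGATAA in the sequence shown lies in an overlapping pooled region of rank 10726 and signal 19.0, 10 bp from the summit of that region and 61 bp from the replicate 1 summit. A further pooled region, rank 13519, lay in a coding exon 7568 bp into the gene. Replicate 1 had a summit of rank 24076 within 2 bp of it, and replicate 2 an overlapping region of rank 12723, 108 bp away. Replicate 1 also had a second region of similar strength to its first, rank 2248 with a signal of 15.6, in an intron 3509 bp into the gene. The gene has 22 annotated transcripts, so distances from its outermost 5′ end need not be distances from the start in use.

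**Figure D4:**
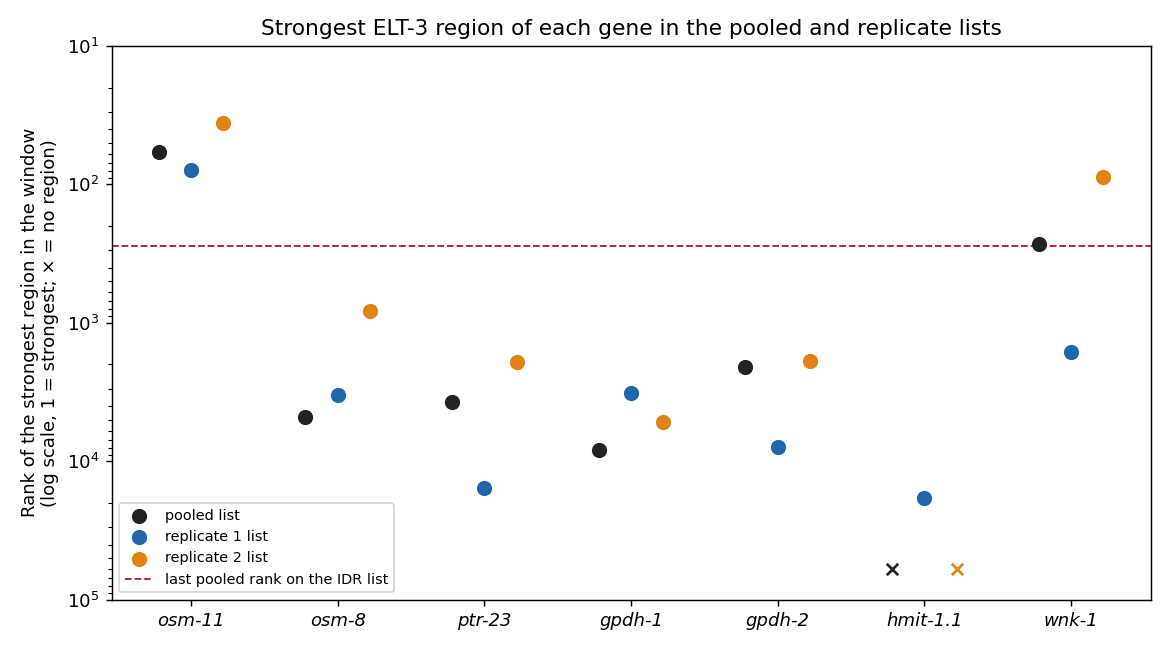
Rank of the strongest region in the window of each of the 7 genes (y axis, log scale, strongest at the top) in the pooled, replicate 1 and replicate 2 lists, with crosses where a list has no region; the dashed line is the last pooled rank on the IDR list. osm-11 lies above the line in all 3 lists, at ranks 58, 79 and 36, while wnk-1 is at rank 1622 in replicate 1.

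Across the 7 genes with a region in both replicates, the strongest region was in the same place, with the regions overlapping, for 2, osm-11 and wnk-1, beside 23.4% of all such genes. At osm-8, ptr-23, gpdh-1 and gpdh-2 the strongest summits were 552 to 3773 bp apart. The strongest region had a stronger rank in replicate 2 than in replicate 1 for 5 of the 7, beside 51.4% of all such genes. Among the 16 pooled regions of the osmotic genes, replicate 1 had a summit within 100 bp for 7 and replicate 2 for 9. Only 2 had one in both, which is 12.5% (95% Wilson interval 3.50 to 36.0%), against 25.1% of all pooled regions and 82.5% of the IDR list. Those 2 are the osm-11 IDR region and the gpdh-2 region in the 3′ UTR. The IDR list was itself thresholded on reproducibility, so its share is not an independent benchmark. With any overlap of the regions counted, 11 of the 16 were found in both replicates, 68.8% (44.4 to 85.8%), against 43.7% of all pooled regions. The first measure lies below the share over all pooled regions, with an interval that includes it, and the second lies above it, with an interval that starts just over it. These intervals cover counting error over regions only. The regions of 1 gene are not independent, and 2 pairs overlap each other, so they make 14 separate stretches.

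A GATA word lay within 50 bp of the summit in 4 of the 16 pooled regions, 25% (10.2 to 49.5%), against 23.9% of all pooled regions and 44.3% of the IDR list. These are the IDR region of osm-11 and 1 weaker region each of gpdh-1, gpdh-2 and wnk-1. In windows of the same size 500 bp to the right of the summits, 2 of the 16 held one, against 20.5% of all pooled regions. In those 500 bp to the left, 5 did, against 20.7%. Over the whole region, 9 of the 16 held a GATA word, 56.2%, against 59.2% of all pooled regions. The word CACGTG was chosen with earlier results of these data known. It was in 3 of the 16 regions, 18.8%, against 6.23% of all pooled regions and 22.5% of the IDR list. Of these 3, 2 are the overlapping regions of wnk-1 and share 1 occurrence. In the 1000 bp before the 5′ end, wnk-1 had 6 GATA words and osm-11 had 5, against a median of 2 over all genes, and 7.14% and 14.8% of genes had as many. The other genes had at most 4. The wnk-1 IDR summit lies outside this stretch, 1962 bp upstream. In the 3000 bp before the 5′ end, osm-11 had 12 GATA words, and 12.2% of genes had as many. There wnk-1 and osm-8 had 10 each, and 25.9% of genes had as many. The other genes had 5 to 9, and the median over all genes was 7.

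By position, 7 of the 16 regions had their summit outside every protein-coding gene, 43.8%, against 39.8% of all pooled regions. Another 4 lay in coding exons, 3 in introns and 2 in 3′ UTRs. Of all pooled regions, 20.0% lay in coding exons, 33.7% in introns and 6.39% in UTRs of either end. Only 1 lay within 1000 bp upstream of the gene's outermost 5′ end, the IDR region of osm-11. Starts of shorter transcripts, as in gpdh-2, were not counted. For 13 of the 16, the nearest protein-coding 5′ end was that of the osmotic gene itself. The windows were set from these 5′ ends, which favours that outcome. No share over all pooled regions is given for these last 2 counts.

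A wider list of 54 genes, which leaves out the 8 above, was read in the same way. It holds osmotic response genes and related groups, among them 9 Notch pathway genes. It too was chosen with earlier results of these data known. An IDR region lay in the windows of 3 of the 54, 5.56%, beside 1.66% of all genes, and a pooled region in 44 of the 54, 81.5%, beside 67.2%. One of the 1000 strongest pooled regions lay at 10 of the 54, 18.5%, beside 5.34%. Replicate ranks for these genes are those of the strongest region that overlaps the pooled one. The median window was 6.40 kb, also longer than the 5.03 kb over all genes. The 3 with an IDR region were pgph-2, which encodes a phosphoglycolate phosphatase-like enzyme, dos-3, which encodes a DOS-motif protein of the same family as OSM-11, and wdr-23, which encodes an inhibitor of the stress factor SKN-1. The pgph-2 region, pooled rank 98 with a signal of 65.0, lay in an intron, 3225 bp into the gene, with ranks 131 in replicate 1 and 175 in replicate 2 and a GATA word near the summit. The dos-3 region, rank 167, was in a coding exon, nearest to the 5′ end of zip-2, with ranks 137 in replicate 1 and 2238 in replicate 2. The wdr-23 region, rank 144, was 145 bp upstream, with ranks 73 in replicate 1 and 1119 in replicate 2.

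The other 7 with one of the 1000 strongest pooled regions were below the IDR list. osm-7, whose loss also makes worms resistant to osmotic stress, had rank 620 and a signal of 37.2, 342 bp upstream, with ranks of 812 in replicate 1 and 5408 in replicate 2. dpy-9, a cuticle collagen gene whose loss also turns on the osmotic response, had rank 648, 90 bp upstream, with ranks of 1069 in replicate 1 and 898 in replicate 2. In the Notch group, dos-1 had rank 825, in a 3′ UTR that overlaps that of cya-1, with ranks of 26054 in replicate 1 and 192 in replicate 2. Of the aquaporin genes, aqp-8 had rank 635, 961 bp upstream with 2 GATA words near the summit, and ranks of 369 in replicate 1 and 17041 in replicate 2. aqp-7 had rank 987 in an intron, and ranks of 959 in replicate 1 and 9251 in replicate 2. The regions of dos-1, aqp-8 and aqp-7 were thus strong in 1 replicate and much weaker in the other. The IDR regions of dos-3 and wdr-23 and the osm-7 region also ranked far lower in replicate 2 than in replicate 1. The cotransporter gene kcc-1 had rank 561, with 1980 in replicate 1 and 771 in replicate 2, and the kinase gene unc-43 rank 423, with 708 and 1177 in replicates 1 and 2, both in introns of long genes. The regions of dos-3 and kcc-1 held 1 and 2 GATA words within 50 bp of the pooled summit. Those of wdr-23, osm-7, dpy-9, dos-1, aqp-7 and unc-43 held none there. None of the 4 osmotic avoidance genes, which act in sensory neurons, had an IDR region or one of the 1000 strongest. Over all genes the shares were 1.66% and 5.34%, so none of 4 is near them and marks no difference. All 4 had a pooled region, beside 67.2% of all genes.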

How the data were processed

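ChIP-seq of ELT-3 was read from region lists of 2 biological replicates, their pool and an IDR list. Per the README text, the authors made each replicate list from the alignments of 1 replicate with a control, the pooled list from both, and the IDR list from all of them. Each list, as deposited, gives a signal value and a summit offset per region, and nothing else was used. The sources used here do not give the aligner, caller, thresholds, signal scaling or read depth. The ce10 lists were not used.

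Regions were ranked by the authors' signal within each list and placed on WBcel235 (ce11) gene models of Ensembl release 115 by summit, with Python 3.11.15, pandas 2.3.3, NumPy 2.4.6, SciPy 1.17.1 and Matplotlib 3.10.9. A gene's window ran from 3000 bp upstream of its 5′ end to its 3′ end. A pooled region was found in a replicate where that list had a summit within 100 bp. GATA words had to lie wholly within 50 bp of the summit. The word search and window code were tested on simulated data. Shares have 95% Wilson intervals, which cover counting error only. Alternatives covered the upstream limit, the list's depth, the match distance, the motif window and each replicate left out.

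The 8 genes, the wider list and the words CACGTG and ACGCAG and the word GAGAGA were chosen with earlier results of these data known. Of the 8, 1 gene is not reported by name here and stands only in the counts. Named genes are the other members, each gene of the wider list with an IDR region or one of the 1000 strongest pooled regions, and the gene with the 5′ end nearest to a region. ACGCAG lay in 1 of the 16 pooled regions of the 8 genes, against 7.70% of all pooled regions, and GAGAGA in 5, against 20.3%.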

Additional observations from a re-analysis of the deposited data

How the results depend on the processing

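Of the 50 alternatives to the 8 counts, 33 stayed within a fixed ratio of the reported count and 17 moved further. Counts within that ratio need not be equal. The stronger 50% of the pooled list gave 11 pooled regions against 16, which was within it. So were 4 genes with a pooled region in windows from 1000 bp upstream, against 6. With windows from 1000 bp upstream, wnk-1 lost its IDR region and 1 gene kept one, the pooled regions numbered 9, those with a GATA word 2, and 3 of the 6 genes kept their strongest pooled region. In the stronger 50% of each list, 1 gene had an IDR region, 5 had a replicate 1 region and 2 pooled regions had a GATA word. Among the 1000 strongest regions of a list, the pooled list had 2 genes and 2 regions, replicate 1 had 1 gene, and replicate 2 had 3. Agreement of the replicates depends on the distance allowed: 1 pooled region was found in both within 50 bp, 2 within 100 bp, 7 within 200 bp and 11 by any overlap. A GATA word was in 9 regions when the whole region was searched, and in 2 windows 500 bp to the right.

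With 1 replicate left out, the genes at the depth of the IDR list numbered 1 to 2, since wnk-1 was lost without replicate 2, the genes with a region at the depth of the pooled list 6 to 7, the regions 18 to 20 and those with a GATA word 5. Agreement in both replicates has no value with 1 of them. No paired analysis was possible because there is 1 group and no test. Read depth is not given, so weak regions cannot be told apart from background, and an absent region does not show that ELT-3 was not bound.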
